A study of Caenorhabditis elegans with 2 samples.

Results

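The 9 genes glh-1, glh-2, glh-3, glh-4, pgl-1, pgl-3, cgh-1, car-1 and pos-1 of Caenorhabditis elegans encode proteins of P granules and of messenger RNA control in germ cells and early embryos. They were taken by gene name from the Ensembl annotation of the WBcel235 genome, and all 9 were found among 19973 nuclear protein-coding genes. For each gene, every peak was taken whose summit lay in the gene or in its promoter window, which ran from 1000 bp upstream to 200 bp downstream of the annotated 5′ end. The peaks record where DNA was recovered with the zinc-finger protein LIR-1, which is related to LIN-26, in a chromatin immunoprecipitation and sequencing experiment. All material came from strain RW12318, whose allele st12318 adds a TY1::EGFP::3xFLAG tag to lir-1 at its own locus. The descriptions give an antibody against GFP, while the antibody field of the labels names lir-1, the tagged protein. Whole animals were harvested as young adults of 63 hours after synchronisation by starvation at the L1 stage. The 2 libraries, biological replicates 1 and 2, formed a single group, so the data hold no comparison between conditions, and whole animals do not tell germline from soma.

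P granules are bodies of RNA and protein that sit at the nuclear pores of worm germ cells and are passed to the germline founder cells of the embryo. PGL proteins form their scaffold, and the GLH proteins, relatives of the Vasa helicase of flies, keep that scaffold at the nuclear envelope. CGH-1 and CAR-1, relatives of the helicase DDX6 and of LSM14, store and silence maternal messenger RNAs in related granules, and POS-1, a CCCH zinc-finger protein, controls the translation of maternal messages in the early embryo.

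The DNA under the summit is shown for the sites of cgh-1 and pos-1 and, for contrast, for the strongest peak of pgl-3, which fell short of the set of reproducible sites. Each window holds the summit and 50 bp on either side, is read 5′ to 3′ in the direction of the gene from the RefSeq copy of WBcel235, and has its 11 central bases in capitals.
cgh-1, minus strand, chrIII:7498547-7498647: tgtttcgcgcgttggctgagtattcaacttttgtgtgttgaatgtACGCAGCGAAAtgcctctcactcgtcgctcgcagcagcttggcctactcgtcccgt
pos-1, plus strand, chrV:8413740-8413840: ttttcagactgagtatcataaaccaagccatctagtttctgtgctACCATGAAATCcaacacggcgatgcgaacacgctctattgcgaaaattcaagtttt
pgl-3, plus strand, chrV:4755499-4755599: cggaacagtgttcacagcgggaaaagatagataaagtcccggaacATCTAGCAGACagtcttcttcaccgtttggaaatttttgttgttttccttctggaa
G and C made up 53.5% of the cgh-1 window, 40.6% of the pos-1 window and 42.6% of the pgl-3 window, against a median of 48.5% over the windows of all sites.

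LIR-1 sites were called at 3 of the 9 genes, glh-2, cgh-1 and pos-1, and at none of the other 6. A site is a peak of the conservative set deposited by the authors, which held the 1209 peaks with a low irreproducible discovery rate (IDR), a measure of how poorly a peak's rank repeats between libraries. All 3 sites lay in the promoter window. By the same rule 5.62% of all nuclear protein-coding genes had a site, and 4.42% had one in the promoter window. All 9 members had at least 1 peak in the longer ranked list of 36486 peaks from which the set was drawn, as did 63.6% of protein-coding genes. In the promoter window alone, 7 of the 9 had one, as did 38.6% of protein-coding genes. The members are longer than most genes, with a median of 2794 bp against 2027 bp over all protein-coding genes, and a longer gene offers more room for a peak. No list was tested here, because the 9 genes were named with earlier results of these data known.

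**Figure D1:**
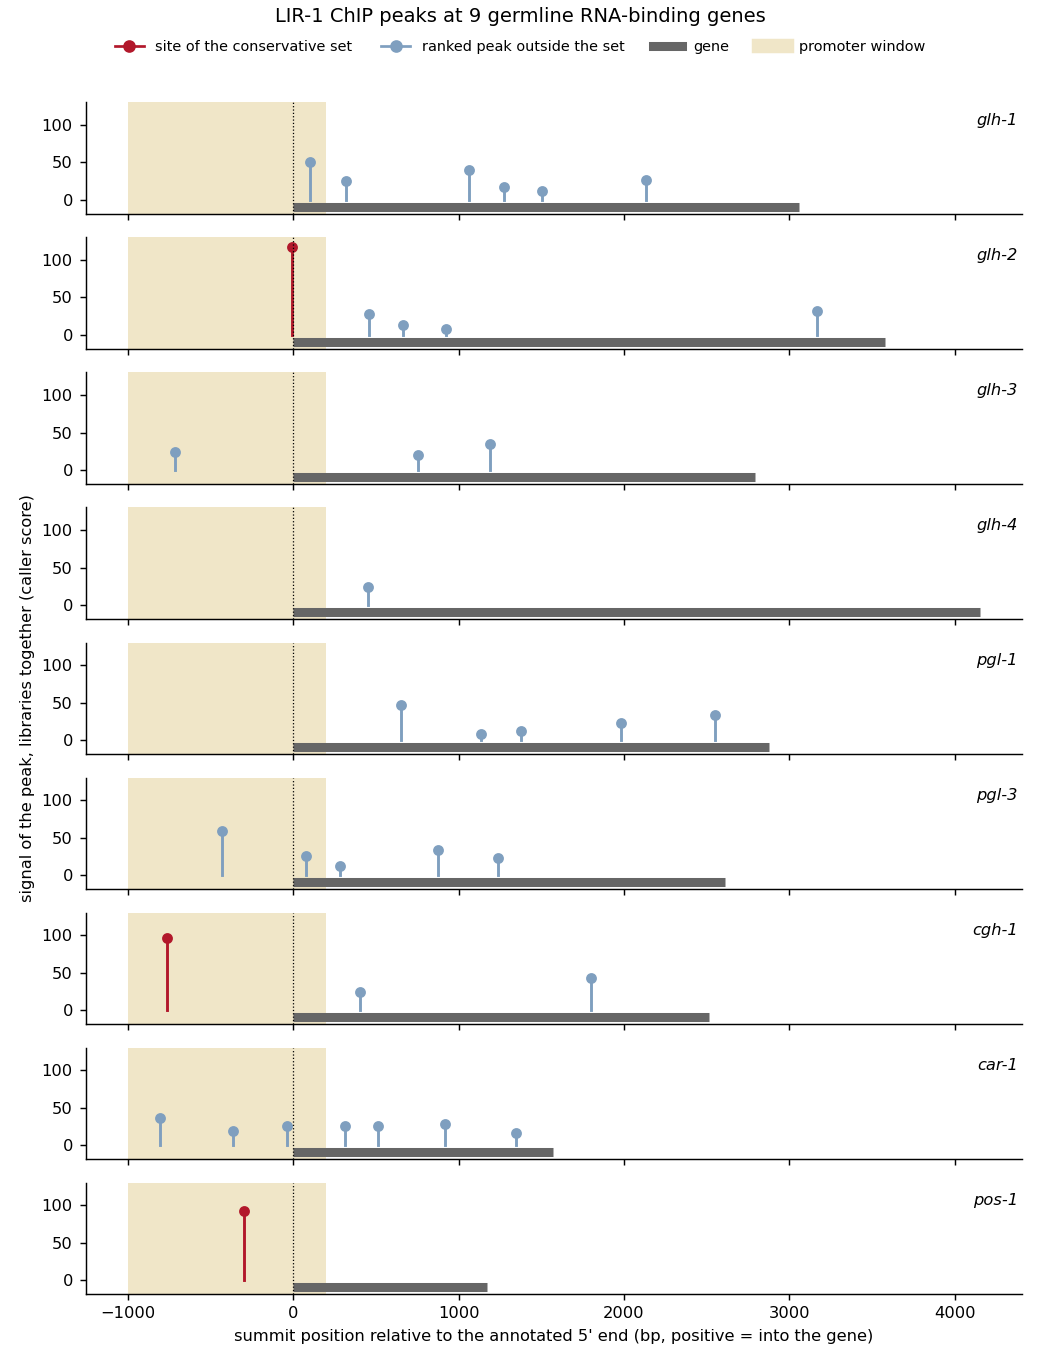
Every ranked peak at each of the 9 genes, drawn at the distance of its summit from the annotated 5′ end (x axis, bp) with a height equal to its signal, the score of the authors' peak caller for both libraries together (y axis). Red marks the 3 sites of the conservative set at glh-2, cgh-1 and pos-1, blue marks the 33 other peaks, the grey bar is the gene and the shaded band is the promoter window.

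The 4 Vasa-type helicase genes differed from one another. glh-2 (WBGene00001599, chromosome I, 6513928 to 6517507, plus strand) held the strongest site of the 9 genes. Its peak, at 6513777 to 6514056, had a signal of 117.0 and ranked 291st among the 1209 sites. Signal is the score, of unstated scaling, that the authors' peak caller wrote for the libraries together. The IDR was 2.74e-05. The summit lay 11 bp upstream of the annotated 5′ end, in a gap of 97 bp between glh-2 and C55B7.11, a gene on the opposite strand that RefSeq describes as encoding the protein OSCP1. It lay 87 bp upstream of the 5′ end of C55B7.11, so the site belongs to both promoters. Of the 664 sites in protein-coding promoter windows, 145 (21.8%) had a summit within 100 bp of the nearest such 5′ end, and 244 (36.7%) lay in the window of more than 1 protein-coding gene.

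Both libraries gave nearly the same signal at glh-2. The signal was 60.1 in replicate 1 and 62.7 in replicate 2 (mean 61.4 ± 1.79, SD, n = 2). The SD was 2.91% of the mean, compared with a median of 13.0% over the 1184 sites with a peak in both libraries. The glh-2 site was also the only member site that passed the threshold in each library's own list. The other 4 ranked peaks of glh-2 lay inside the gene and had signals from 7.44 to 32.3.

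glh-1 (WBGene00001598, chromosome I, 6854478 to 6857536, plus strand) is the closest relative of glh-2 and had no site. Its strongest peak, at 6854436 to 6854715, reached a signal of 49.96 at an IDR of 0.0929, with the summit in the 5′ untranslated region 98 bp downstream of the 5′ end. The signal was 30.4 in replicate 1 and 23.3 in replicate 2 (26.8 ± 5.01, SD, n = 2). Neither value came near those of glh-2. Of the 231 stretches of 50 bases in this peak, 154 (66.7%) also occur elsewhere in the genome, in or near daf-25, ilkp-1 and ppw-1 and between genes. None of those in the glh-2 peak does. No source used here says how reads with several matches were placed, so the signal at glh-1 is uncertain. The part of the repeats in it was not tested.

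glh-3 stood above and glh-4 below the middle of the ranked list, whose median signal was 28.4. glh-3 (WBGene00001600, chromosome I, 5792321 to 5795114, minus strand) had 3 peaks, the strongest at 35.3 with an IDR of 0.589, in a coding exon 1192 bp into the gene. Its library signals were 14.6 in replicate 1 and 20.5 in replicate 2 (17.5 ± 4.15, SD, n = 2). The only glh-3 peak in the promoter window, 717 bp upstream with a signal of 24.6, had its summit in a coding exon of mtk-1. glh-4 (WBGene00001601, chromosome I, 3727027 to 3731179, plus strand) had 1 peak, in a coding exon 453 bp into the gene, at a signal of 24.6. Its IDR of 0.866 was the highest value in the list, and 44.4% of ranked peaks shared it. No peak of either library's own ranked list overlapped it, and the library values that the joint list matched to it, with no replicate named, were 10.2 and 13.9. Of its 231 stretches of 50 bases, 36 recur elsewhere. Its promoter window held no ranked peak, and the nearest site was 13479 bp from its 5′ end, beside larp-5.

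The scaffold genes had no site, and pgl-3 came nearest to having one. pgl-3 (WBGene00003994, chromosome V, 4755979 to 4758587, plus strand) had its strongest peak at 4755409 to 4755688, 430 bp upstream of the 5′ end, where the signal was 58.2 and the IDR 0.0400. The highest IDR in the conservative set was 0.00997. The signal was 23.2 in replicate 1 and 34.3 in replicate 2 (28.8 ± 7.86, SD, n = 2), so replicate 2 was the higher. Of the sites, 74 (6.12%) were weaker than this peak, and 539 ranked peaks outside the set were stronger. The summit lay 96 bp beyond the 3′ end of hil-4, a linker histone gene on the same strand. hil-4 had a site of its own with a signal of 76.7, which lay 1630 bp upstream of the pgl-3 5′ end and 36 bp from that of hil-4.

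pgl-1 (WBGene00003992, chromosome IV, 6974441 to 6977318, minus strand) had 5 ranked peaks, all inside the gene and outside the promoter window. The strongest, at 6976528 to 6976807, had a signal of 46.6, with an IDR of 0.381 and the summit in a coding exon. The signal was 23.1 in replicate 1 and 18.9 in replicate 2 (21.0 ± 2.98, SD, n = 2). This summit also lay 840 bp upstream of him-3, a meiotic chromosome axis gene on the opposite strand. The nearest site was 57795 bp from the pgl-1 5′ end, beside ruvb-2.

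Of the genes for messenger RNA storage, cgh-1 had a site and car-1 had none. cgh-1 (WBGene00000479, chromosome III, 7495320 to 7497832, minus strand) had its site at 7498457 to 7498736 with a signal of 96.1, the 463rd of the set. Its IDR was 0.00117. The summit, shown in the first sequence above, lay 765 bp upstream of the 5′ end, farther out than most: 64 of the 664 promoter sites (9.64%) were more than 700 bp upstream of the nearest 5′ end, and the median was 220.5 bp. It was 151 bp from the 3′ end of C07H6.9, the next gene on the same strand, and in no other promoter window. The libraries differed here: the signal was 57.2 in replicate 1 and 34.5 in replicate 2 (45.9 ± 16.0, SD, n = 2). The SD was 35.0% of the mean, and the peak passed the threshold in the list of replicate 1 alone. The 2 other ranked peaks of cgh-1 had signals of 43.1, in the 3′ untranslated region, and 24.7, in a coding exon. The first was 802 bp upstream of the noncoding RNA gene C07H6.15, and the second 776 bp upstream of the snoRNA gene C07H6.10, which is nested in cgh-1.

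car-1 (WBGene00012484, chromosome I, 12904470 to 12906040, plus strand) had the most ranked peaks of the 9 genes, 7, with signals from 16.4 to 36.3. The strongest was above 75.4% of all ranked peaks, and the others were below the median of the list. Compared gene by gene, 53.4% of protein-coding genes with a ranked peak had a weaker strongest peak than car-1. The strongest peak lay at 12903521 to 12903800 and had an IDR of 0.7365, with the summit 809 bp upstream of car-1 and 212 bp upstream of coa-5, a gene for a cytochrome c oxidase assembly factor on the opposite strand. The signal was 28.0 in replicate 1 and 14.3 in replicate 2 (21.1 ± 9.67, SD, n = 2). That SD was 45.8% of the mean, the largest among the members' strongest peaks. The lowest IDR at car-1, 0.3075, belonged to a peak in a coding exon with a signal of 28.0. The nearest site was 62475 bp from the 5′ end, beside tba-2.

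pos-1 (WBGene00004078, chromosome V, 8414086 to 8415254, plus strand), the shortest of the 9 genes, had a single ranked peak, and that peak was a site. It lay at 8413650 to 8413929 with a signal of 92.7, the 513th of the set. Its IDR was 0.000567. The summit, shown in the second sequence above, lay 296 bp upstream of pos-1 and 308 bp upstream of vha-18, a gene for a vacuolar ATPase subunit on the opposite strand, and so near the middle of the 603 bp between them. Which of these genes the site bears on cannot be told apart. The signal was 49.96 in replicate 1 and 39.5 in replicate 2 (44.7 ± 7.38, SD, n = 2), and the peak passed the threshold in the list of replicate 1 alone. Of its 231 stretches of 50 bases, 18 (7.79%) recur elsewhere.

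**Figure D2:**
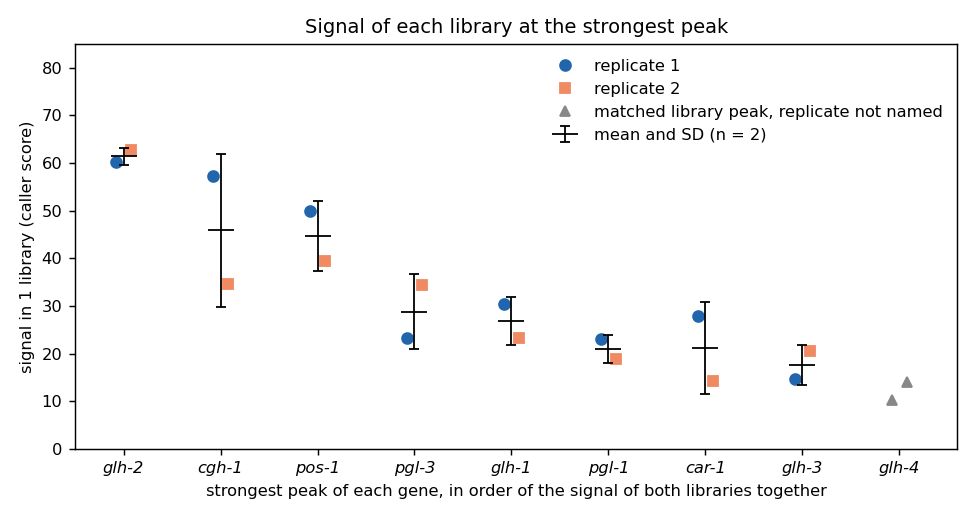
Signal at the strongest peak of each of the 9 genes in each library (y axis, score of the peak caller), with the genes in order of the signal of both libraries together (x axis). Circles are replicate 1, squares are replicate 2, bars give the mean and SD (n = 2), and triangles for glh-4 are library values with no replicate named. Both glh-2 values lie above 60, and both values of each gene without a site lie below 35, as does replicate 2 of cgh-1.

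Set in order by the signal of both libraries together, the strongest peaks ran glh-2, cgh-1, pos-1, pgl-3, glh-1, pgl-1, car-1, glh-3 and glh-4. The library values of glh-2 did not overlap those of cgh-1, its neighbour in the order. Those of cgh-1 and pos-1 overlapped, as did those of pgl-3 and glh-1, of pgl-1 and car-1, and of car-1 and glh-3. Those of pos-1 and pgl-3 did not overlap, nor did those of glh-1 and pgl-1. The lower value of cgh-1, 34.5 in replicate 2, was barely above the higher value of pgl-3, 34.3 in the same replicate. In replicate 2 alone, cgh-1 and pgl-3 thus had nearly the same signal. Of the 8 genes with values in both libraries, 5 were higher in replicate 1 and 3 in replicate 2. Over the sites with a peak in both libraries, 53.0% were higher in replicate 1.

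The members' sites lay in the upper part of the set. Their signals of 117.0, 96.1 and 92.7 were all above the median of 86.4 over all sites, and 75.9%, 61.8% and 57.6% of sites were weaker. No ranked peak outside the set was stronger than the glh-2 site, 3 were stronger than the cgh-1 site and 4 than the pos-1 site. The median strongest signal was 49.96 over the 9 members, against 35.2 over the 12693 protein-coding genes with a ranked peak. The members also had more ranked peaks, a median of 5 against 1 over all protein-coding genes. A gene with more peaks has more chances of a high one, so these medians are not like for like.

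**Figure D3:**
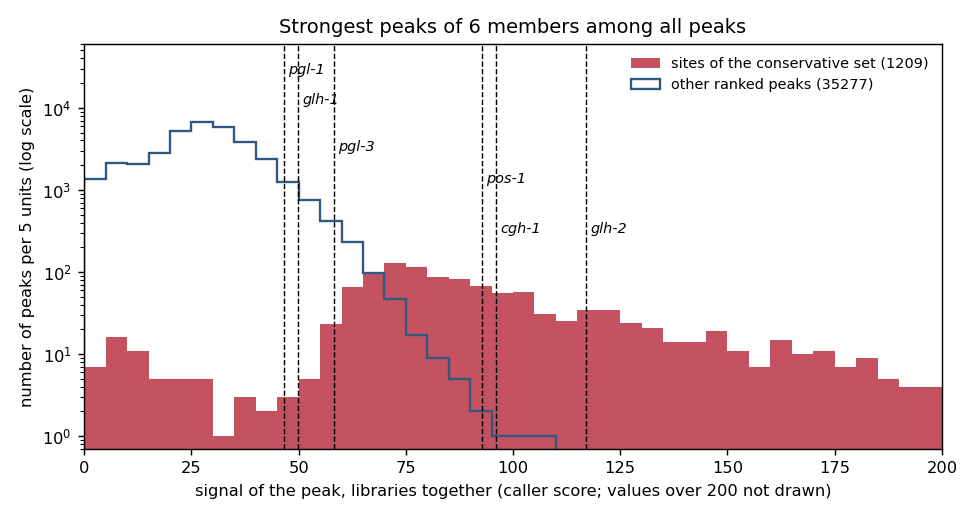
Number of peaks (y axis, log scale) by signal of both libraries together (x axis, in steps of 5 units, shown up to 200) for the 1209 sites (filled) and the other ranked peaks (outline). Dashed lines mark the strongest peaks of 6 members: glh-2, cgh-1 and pos-1 lie beyond nearly all peaks outside the set, and pgl-3, glh-1 and pgl-1 lie where peaks outside the set outnumber sites.

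The remaining peaks at the members were weak and lay mostly inside the genes. Outside the set there were 33 ranked peaks, with signals from 7.44 to 58.2 (median 25.3), and 10 of them were above the median of the whole ranked list. Of all 36 member peaks, sites included, 22 had the summit in a coding exon, among them the mtk-1 exon named above. Another 7 lay between genes, 4 in an untranslated region and 3 in an intron. These shares were not counted over all ranked peaks. Every one was 280 bp wide, and several overlapped a neighbour, so that the 36 peaks formed 28 separate stretches. At glh-1, for example, the peaks at 98 and 321 bp overlapped and were matched to the same library peaks.

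Other genes of germ granules and germline messenger RNA control were counted from 4 lists written from general knowledge, with earlier results of these data known. Of 64 genes found, 12 (18.8%) had a site, against the 5.62% of all protein-coding genes given above. Among the stronger 50% of sites the share was 4 of 64 (6.25%), against 3.25% of all protein-coding genes. In the whole set it was 4 of 9 among maternal regulators of the early embryo, the class of pos-1, and 5 of 17 among genes of storage, decapping and decay, the class of cgh-1 and car-1. It was 2 of 17 among other germ granule proteins and 1 of 21 among PUF, Nanos and GLD regulators. The median strongest signal in these lists was 59.2, 47.1, 38.3 and 34.9, in the order given. At 9 of the 12 genes the summit was also in the promoter window or body of another protein-coding gene. The share of all sites shared by this rule was not counted, so the 9 cannot be called high or low.

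Among the maternal regulators, the strongest site was at mex-1, a CCCH zinc-finger gene, with a signal of 171.8 (84.0 ± 4.82, SD over the libraries, n = 2). That summit lay 931 bp upstream of mex-1 and was shared with rab-7 and W03C9.5. Sites with lower signals lay at spn-4, which encodes an RNA-binding protein of embryonic fate (80.8, shared with spe-39), at mex-3, a KH-domain gene (78.9, in an intron), and at mex-5, another CCCH gene (60.7, shared with rec-8). No site lay at mex-6, pie-1, oma-1, oma-2 or lin-41.

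Among the genes of storage and decay, larp-1, a La-related protein gene, had the strongest site (216.6, or 110.7 ± 21.9, SD, n = 2), shared with wip-1. It was followed by ifet-1, whose product is a partner of CGH-1 and CAR-1 (212.1, or 107.6 ± 19.8, SD, n = 2). The ifet-1 summit lay 517 bp upstream and was shared with the ribosomal protein gene rps-1 and the noncoding RNA genes F56F3.10 and F56F3.11. The site of atx-2, the ataxin-2 gene, had a signal of 153.1 (78.9 ± 23.8, SD, n = 2) and was shared with ecps-1. The sites of cey-2, a Y-box gene (59.0, shared with xrep-4), and ccf-1, a deadenylase gene (55.2, shared with trap-4), were weak for the set, and their IDR values of 0.00962 and 0.00997 lay just inside the limit of the set.

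The germ granule list had 2 genes with a site (11.8%) and the PUF, Nanos and GLD list had 1 (4.76%). The share of all protein-coding genes was 5.62%. ego-1, which encodes an RNA-dependent RNA polymerase of the germline, had a signal of 82.4, and ekl-1, which acts in the same small RNA pathways, had 84.5 in its 3′ untranslated region. The single site of the PUF, Nanos and GLD list was at puf-3 (68.1), inside an intron of afmd-2, and was matched in the own ranked list of replicate 1 but not of replicate 2. Of these 12 genes, 5 (ego-1, mex-1, larp-1, ifet-1 and atx-2) had the site in each library's own thresholded list. Another 3 had it in the list of replicate 1 alone, and 4 (ekl-1, mex-3, cey-2 and ccf-1) in neither. The same shares over all sites were not counted. At 8 of the 12 genes the signal was below the median of all sites.

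**Figure D4:**
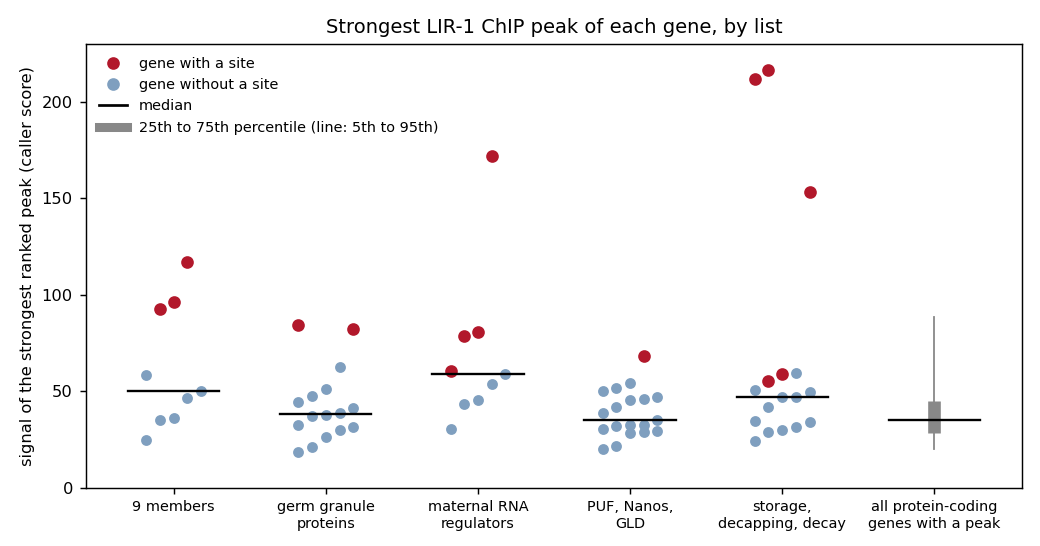
Signal of the strongest ranked peak of each gene (y axis, score of the peak caller) for the 9 members, the 4 wider lists and, as a bar of percentiles, all protein-coding genes with a ranked peak (x axis). Red genes have a site and blue genes do not, and black lines are medians, which run from 34.9 to 59.2 over the wider lists, against 49.96 for the members and 35.2 for all genes. The number of peaks per gene, which differs between groups, was not adjusted for.

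The windows from 50 bp before to 50 bp after the summits of the member sites held none of 8 short motifs searched on both strands. TGCGTC was in 14.8% of the windows of all sites and in 2.65% of windows of the same length just upstream of protein-coding 5′ ends. CTGCGTCTC, which contains it, was in 7.53% and 1.03%, and GAGAGA in 20.3% and 8.86%. The others were CCGCCC (6.12% and 3.49%), TTCCCGCC (1.90% and 0.386%), GTTCGAA (2.15% and 1.41%), GATAAG (3.47% and 7.30%) and CACGTG (5.54% and 2.47%), each with the share of sites before that of promoters. At least 1 of the 8 was in 43.6% of site windows and 23.5% of promoter windows. Among the strongest peaks of the other 6 members, only those of glh-3 and glh-4 held one, GAGAGA.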

How the data were processed

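DNA from 2 chromatin immunoprecipitation libraries of young adult worms was described by peak lists on ce11, per the labels. Per the manifests deposited with the samples, the authors made each list from filtered alignments set against a control, and that control was not analysed here. For the aligner and the caller, names and versions were not given in the sources used here. Each peak carries a score deposited by the authors, called signal, of unstated scaling, and the ranked lists carry the −log10 of the global IDR, deposited by the authors and printed here as the IDR. Both are the authors' own values and only describe and rank peaks. The files give no read totals, so depth is unknown and no counting interval could be given. Nothing says whether the replicates came from separate cultures beyond the word biological, and an SD over 2 libraries is imprecise.

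Coordinates are 1-based. All peaks ended within the WBcel235 chromosomes, the same assembly as ce11, and genes came from Ensembl release 115. Many worm transcripts are trans-spliced, so an annotated 5′ end can lie downstream of the true start. A peak counted for every gene whose window or body held its summit. The signal of a replicate is that of the strongest peak in its own ranked list that overlapped the site by at least 1 bp. The joint ranked list also gives a signal for each library without naming the replicate, which was used for glh-4. In the other ranked list, 2 such columns were not used. Python 3.11.15, pandas 2.3.3 and numpy 2.4.6 were used. A check on simulated data covered only the promoter window rule at well separated genes, not gene bodies or overlapping genes. No significance test was run. Of the 65 listed genes outside the members, ntl-1 was not matched by symbol. The members, lists and motifs were chosen with earlier results of these data known. The genes named are the 9 members, genes sharing a member's summit and listed genes with a site; genes next to a member or beside its nearest site, and listed genes without a site, were chosen after their values were seen. Alternatives were other peak sets, each library alone, other windows, gene assignments and overlaps, and a shorter sequence window.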

Additional observations from a re-analysis of the deposited data

How the results depend on the processing

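The sites of glh-2, cgh-1 and pos-1 were found in the other set of the series and by the nearest 5′ end. They also counted in the stronger 50% of sites, in the promoter window alone, by any transcript's 5′ end and by any base of the peak. Those latter settings could not lose them. Their signals were above the median of all sites and their summits in the promoter window, and the transcript and base rules only widen the main rule. From each library's own list, 1 to 3 members had a site: glh-2, cgh-1 and pos-1 in replicate 1, and glh-2 in replicate 2. The shares of all protein-coding genes were 4.28% in replicate 1 and 3.01% in replicate 2. A narrower window of 500 bp upstream to 100 bp downstream left 2, without cgh-1, and a wider one of 2000 bp gave 4, adding pgl-3 through the site beside hil-4. For these windows the share of all protein-coding genes was not counted, and a wider window offers every gene more room for a site. The signal in one library, on the scale of that library's own list, was 60.1 to 62.7 at glh-2. It was 34.5 to 57.2 at cgh-1 and 39.5 to 49.96 at pos-1. The other set carries the same signal of the libraries together for these peaks, so its identical values are no separate check. A ranked peak was present at 8 members in the other ranked list, where the share of all protein-coding genes was not counted. In the promoter window alone 7 members had one, against 38.6% of protein-coding genes. Of the 64 listed genes, 12 had a site (18.8%, against 5.62% of all protein-coding genes), 8 in the other set (12.5%, against 5.20%), 10 in the promoter window alone (15.6%, against 4.42%) and 4 among the stronger 50% of sites (6.25%, against 3.25%). From one library alone it was 5 to 8: 8 in replicate 1 (12.5%, against 4.28%) and 5 in replicate 2 (7.81%, against 3.01%). No difference between these shares was tested. Windows of 51 bp lie inside those searched, so their motif count of 0 follows from the first count and is no separate check. No paired analysis was possible because the series has 1 group. Depth is unknown, so peaks missing from a list may only have been missed.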
